A study of Rattus norvegicus with 8 samples.

Results

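Nuclear genes of oxidative phosphorylation were read from the transcript table of a corticosterone infusion experiment in the rat hippocampus. Members were taken by the start of their symbol, namely Ndufa, Ndufb, Ndufc, Ndufs or Ndufv for complex I, Sdha to Sdhd for complex II, Uqcr for complex III, Cox4 to Cox8 for complex IV and Atp5 for complex V. These prefixes matched 92 of the 16266 transcript rows, and 85 of the 13272 gene symbols. Each symbol was represented by its row with the highest mean of the 2 group values. Complex I held 40 members, complex II 7, complex III 7, complex IV 15 and complex V 16. The prefixes also caught 10 assembly factors, of which 7 are Ndufaf and 3 are Sdhaf symbols.

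Oxidative phosphorylation takes place in the inner mitochondrial membrane. Complexes I and II feed electrons from NADH and succinate into the ubiquinone pool, complex III passes them to cytochrome c, complex IV hands them to oxygen, and complex V, the ATP synthase, uses the proton gradient that complexes I, III and IV build to make ATP. All the subunits of complex II and most of those of the other complexes are encoded in the nucleus, while the catalytic cores of complexes I, III and IV and part of the membrane sector of complex V also need subunits from the mitochondrial genome. Neurons draw most of the ATP they spend on ion pumping and synaptic transmission from this pathway.

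Whole hippocampi were taken from 8 adrenalectomized rats, which make no corticosterone of their own, aged 3 to 4 months. The vehicle group of 4 rats was infused with 0.45% saline for 30 min at ZT 2 (hours after lights on). The CORT group of 4 rats was infused over the same time with corticosterone-2-hydroxypropyl-β-cyclodextrin, a water-soluble form of the hormone, at 0.75 mg/mL. The labels give ZT 2 and Sprague-Dawley as time and strain, whereas the methods give ZT 4, 2 h after the infusion began, as the time of collection and name male Lister hooded rats. The age above is that of the labels, and the methods give a younger age, in weeks. By the methods, the rats also drank corticosterone in saline while recovering from surgery, and plain saline took its place before the experiment.

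The table gives 1 FPKM value (fragments scaled to transcript length in kilobases and to library size) for each group and no value for a single rat. No spread between rats could be computed, no difference below was tested, there is no replicate check, and the depth behind a value is unknown. Differences are given as the log2 of the CORT over the vehicle FPKM, with nothing added to either value. In whole tissue, fewer cells of a type and less RNA per cell cannot be told apart.

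Pdk4, a kinase that restrains entry of pyruvate into the Krebs cycle and a known glucocorticoid target, was listed at 1.39 FPKM in vehicle rats and 8.11 FPKM after CORT, a log2 ratio of 2.54. Per1, a core clock gene with a glucocorticoid response element, was listed at 10.2 FPKM and 19.7 FPKM, a log2 ratio of 0.95. These are the reference points for the size of a response in this experiment. All 7 oligodendrocyte and all 7 microglia markers were lower in the CORT group, with median log2 ratios of -0.24 and -0.20, and the 9 listed markers of hippocampal neurons had a median of 0.00. Of 7 astrocyte markers 5 were lower, with a median of -0.10, and all 5 listed choroid plexus markers lay within 1.1-fold. The 7 markers of thalamus or habenula, which border the hippocampus, were lower as well, and their summed level was 33.4 FPKM in vehicle rats and 16.5 FPKM after CORT.

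The oxidative phosphorylation genes stood at nearly the same level in both groups. Their median log2 ratio was 0.03, with quartiles of -0.02 and 0.05, beside a median of 0.02 over all 13272 symbols with quartiles of -0.11 and 0.12. No member was at least 1.2-fold higher with CORT, whereas 8.34% of all symbols were. Only Cox8b and Ndufa4l2 were at least 1.2-fold lower, against 12% of all symbols. The value was above vehicle for 54 of 85 members, or 63.5%, beside 54.2% of all symbols. Counts above vehicle given below for each complex and list are to be read beside that share. A ratio within 1.1-fold was found for 77 of 85 members, so that 8 lay outside it, beside 42.3% of all symbols. Of these 8, Cox6a2, Ndufb7, Ndufaf2, Atp5i and Ndufb8 were higher with CORT and Cox8b, Ndufa4l2 and Sdhaf4 were lower.

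**Figure D1:**
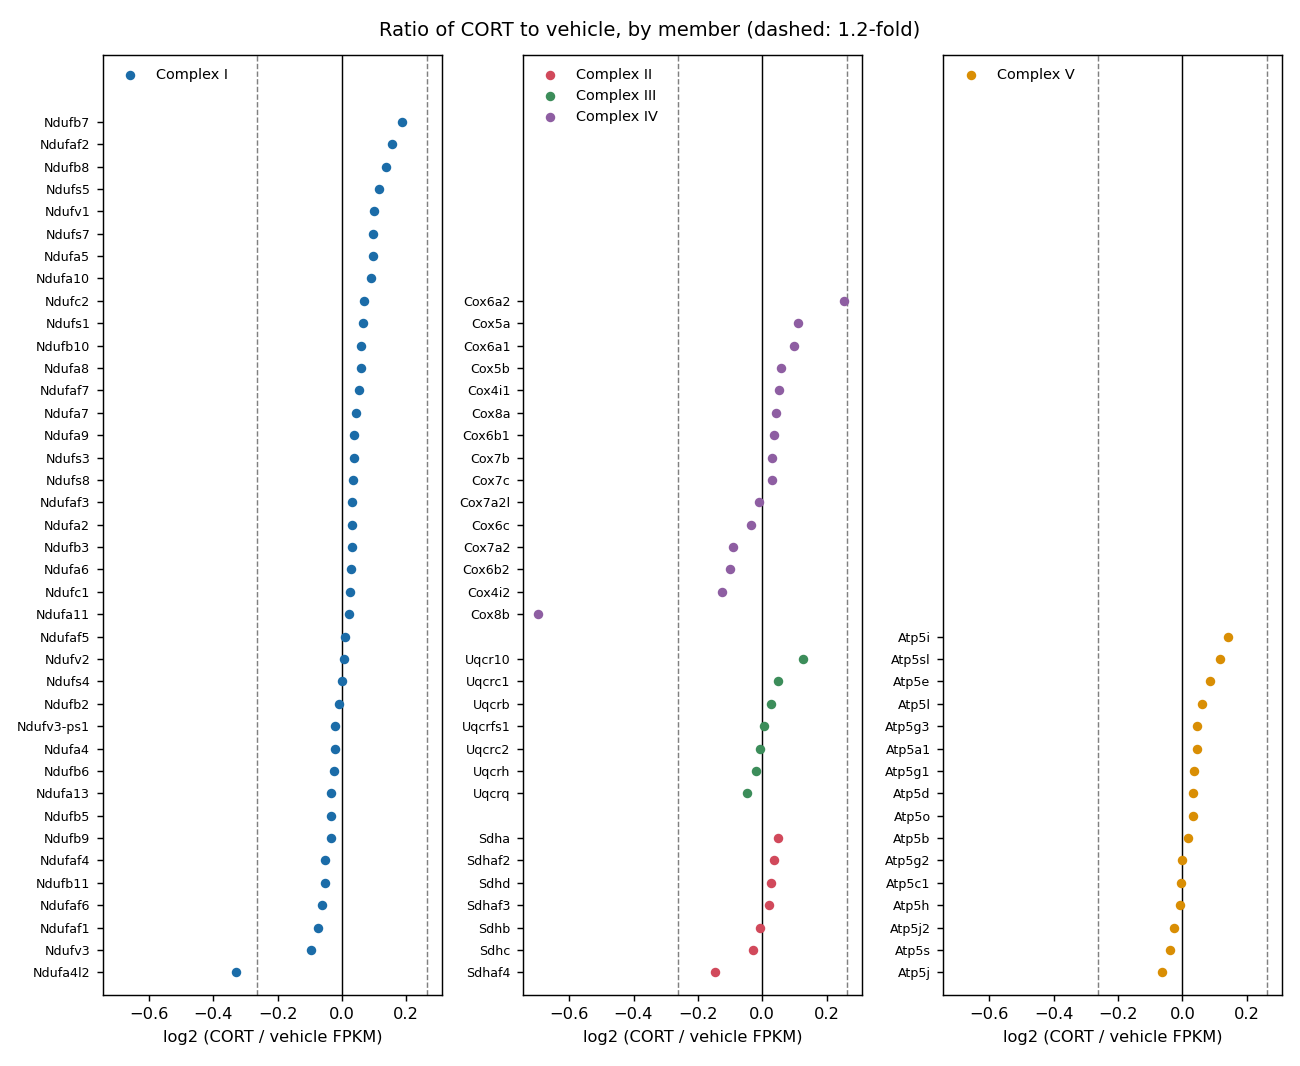
Log2 ratio of CORT over vehicle FPKM (horizontal axis) of the members shown (1 point each, rows ordered by ratio within a complex, coloured by complex), with dashed lines at 1.2-fold in each direction. Cox8b at -0.70 and Ndufa4l2 at -0.33 are the 2 points beyond a dashed line, and no member lies beyond the one on the right.

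Members were also highly expressed, and ratios were narrower among abundant transcripts: the interquartile range of the log2 ratio was 0.23 over all symbols, 0.17 at or above 100 FPKM, and 0.06 over the members at or above 100 FPKM. Of the 85 members, 58 had a mean of at least 100 FPKM, or 68.2%, as did 6.71% of all symbols. The median member stood at 156 FPKM in each group, whereas the median symbol stood at 11.4 FPKM in vehicle rats and 11.6 FPKM after CORT. By mean FPKM, 10 members were among the 100 highest symbols of the table and 40 were among the 500 highest.

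The comparison was therefore repeated at matched floors of expression. Among symbols at or above 10 FPKM, 4.91% were at least 1.2-fold higher and 3.96% at least 1.2-fold lower, beside 0 and 1 of 77 members. In the same range 29.8% of symbols lay outside 1.1-fold, whereas 72 of 77 members lay within it. The CORT value was above vehicle for 60.7% of these symbols and for 52 of the 77 members, or 67.5%. Their median log2 ratios were 0.033 for the symbols and 0.030 for the members. Among symbols at or above 100 FPKM, 68.4% were within 1.1-fold, and 55 of 58 members, or 94.8%, were. At this floor 64.4% of symbols and 67.2% of members were above vehicle, with medians of 0.041 and 0.031. The median of the members was thus not above that of symbols at either floor.

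**Figure D2:**
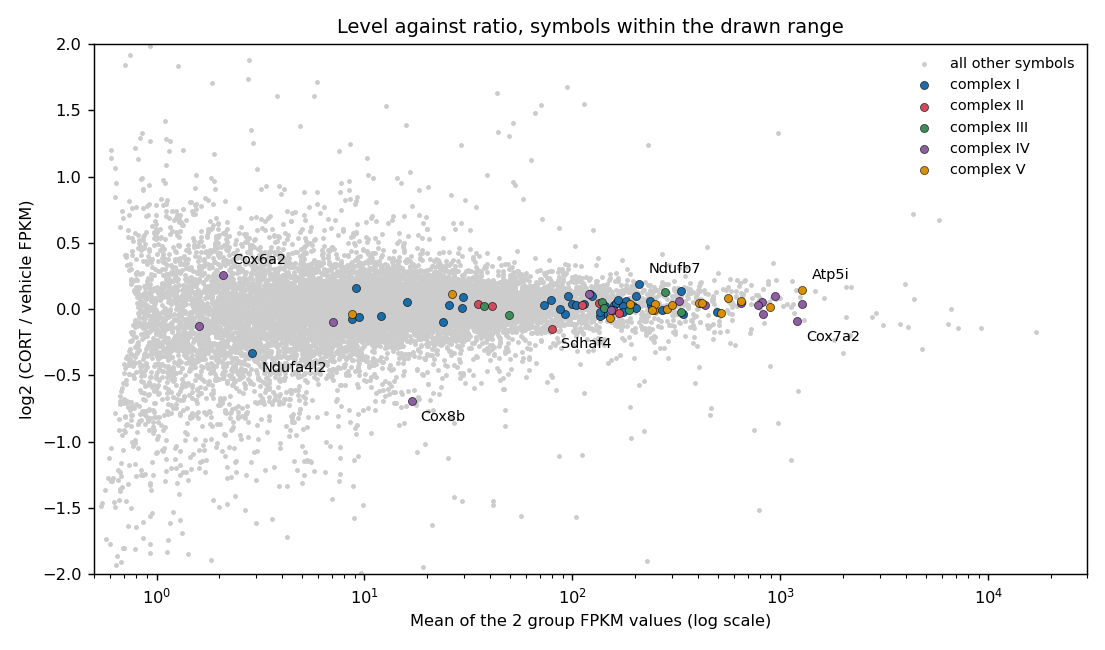
Log2 ratio of CORT over vehicle FPKM (vertical axis) against the mean of both group values on a log axis, with members coloured by complex and all other symbols in grey. Members lie mostly to the right of 100 FPKM in a band close to 0, and the low members Cox8b, Ndufa4l2 and Cox6a2 stand farthest from it. Symbols outside the drawn range are left out.

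Promoters were examined for what the members share beyond their names. RefSeq promoters of the GRCr8 assembly, 250 bases before to 50 bases after the annotated start, were available for 74 of the 85 members among 27457 promoters, and 5 motifs known from genes of this pathway or from housekeeping promoters were searched on both strands. The NRF1 motif, GCGCATGCG, was present in 8 members, or 10.8%, and in 1.66% of all promoters. The YY1 motif, AAGATGGCG, was present in 9 members, or 12.2%, and in 1.93% of all promoters. The ETS motif read by GABPA, CCGGAAGT, was present in 8 members, or 10.8%, and in 4.01% of all promoters. At least one of these 3 was held by 24 members, or 32.4%, and by 7.12% of all promoters. The Sp1 motif, GGGGCGGGG, was less frequent in members, at 6.76% against 10.4%, and the CRE, TGACGTCA, was present in 5.41% against 1.91%. Members were richer in G and C, with a median of 56.8% against 52% over all promoters. The promoters compared were not matched for expression level. The parts of base composition and of expression level in these shares were not tested.

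The NRF1 matches fell on 3 members of complex I, 1 of complex III and 4 of complex V. The stretches below show the match with 10 bases on either side, 5′ to 3′ on the strand of the gene, with the motif in capitals, and were chosen to show 1 gene of complex III and 4 of complexes I and V. The motif reads almost the same on both strands, so most of these windows match on each.
Atp5i: ttgcgctacgGCGCATGCGctttcctggc
Atp5o: acgccgacgcGCGCATGCGctctggcatc
Atp5g2: ggctctagtcGCGCATGCGcagagccttc
Uqcrc1: actccaccctGCGCATGCGtagcgcggct
Ndufa11: ctgtgcgcatGCGCATGCGcacaggccat
In these genes the match began at positions -76, -59, -56, -39 and -91, in the order printed, counted from the start with -1 as the base before it, and Ndufa11 held a second overlapping copy. Atp5i stood at 1215 FPKM in vehicle rats, whereas Ndufaf4 and Ndufaf5, which also held the motif, stood at 12.2 FPKM and 29.4 FPKM.

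The YY1 matches fell on 6 members of complex I, 1 of complex III and 2 of complex V. In 7 of the 9 the match began after the annotated start, that is, inside the transcribed first exon. The next windows are drawn in the same way, with the YY1 motif in capitals, and show 3 genes of complex I and the 1 of complex III.
Ndufb8: ggagaaggtgAAGATGGCGgcgtcccggg
Ndufs7: ggccgaggccAAGATGGCGgcgctggcgg
Ndufa9: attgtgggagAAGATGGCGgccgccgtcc
Uqcrc1: cggaagttagAAGATGGCGgcgtccgcag
Uqcrc1, a core protein of complex III, was the member that held both the NRF1 and the YY1 motif. The glucocorticoid response element, searched as AGAACA and TGTTCT with 3 bases between them, was found in 0 of 74 members and in 2 of all promoters. A match describes letters in this window and not a bound site.

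The levels within each complex differed far more than the levels between groups. Complex III spanned 8.84-fold from its lowest to its highest member and complex II 4.79-fold, whereas complex I spanned 172-fold, complex V 146-fold and complex IV 801-fold. The wide spans ran from Ndufa4l2 to Ndufa4, from Atp5s to Atp5i, and from Cox4i2 to the row used for Cox6b1. Membership by prefix and the uncertain level of Cox6b1 thus enter into them. The median member stood at 128 FPKM in vehicle rats and 131 FPKM after CORT in complex I, at 111 FPKM and 113 FPKM in complex II, at 141 FPKM and 142 FPKM in complex III, at 428 FPKM and 437 FPKM in complex IV, and at 292 FPKM and 295 FPKM in complex V. The median of complex IV rests on the rows used for Cox6b1 and Cox7a2, described further on, and it was 154 FPKM in vehicle rats and 153 FPKM after CORT when the row with the longest locus stood for each symbol. Complex II had the lowest median with its assembly factors, but its 4 subunits alone had a median of 144 FPKM in vehicle rats.

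**Figure D3:**
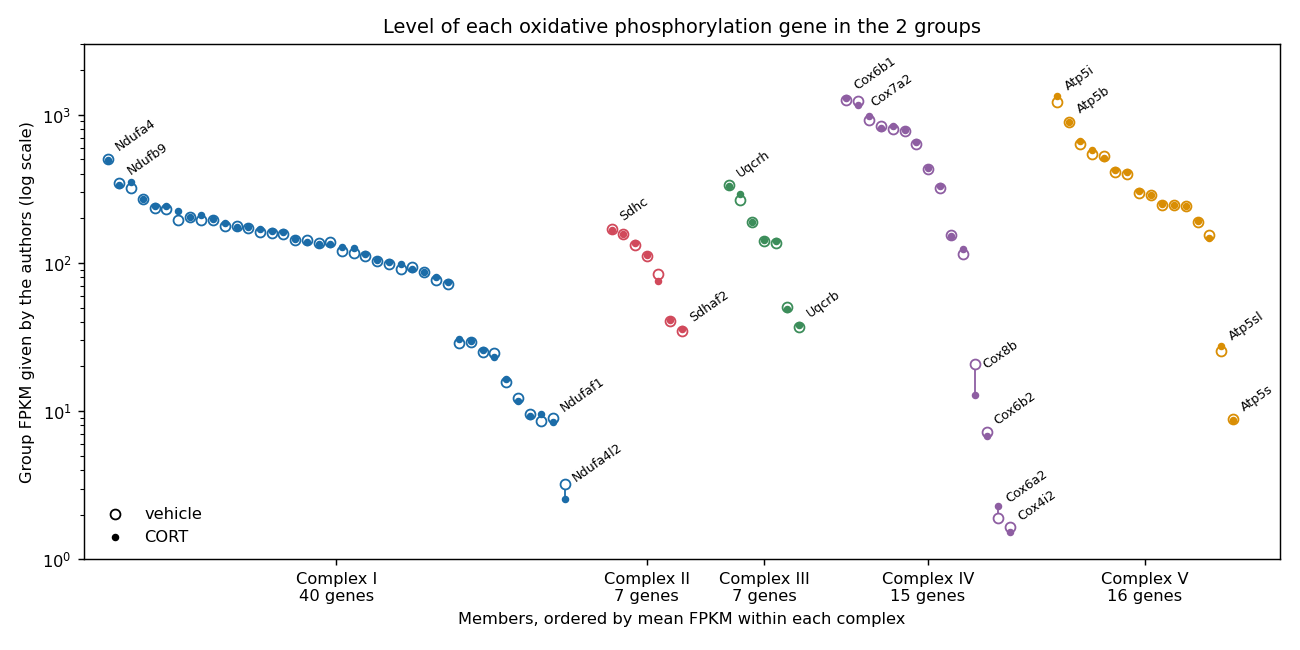
FPKM of each member on a log axis, ordered by mean FPKM within complexes I to V, with open circles for the vehicle group, filled circles for the CORT group and a line joining both. The circles coincide for most members, and the wide drop within complex IV is formed by Cox8b, Cox6b2, Cox6a2 and Cox4i2, all under 21 FPKM.

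Complex I, NADH dehydrogenase, had a median log2 ratio of 0.03, and 27 of its 40 members were above vehicle. Its summed FPKM was 5392 in vehicle rats and 5517 after CORT, 2.33% higher, beside 6.57% for the sum over all symbols. The latter sum is weighted towards abundant symbols and large single ratios. Over all symbols the median log2 ratio was 0.02 and the highest was 12.8. The 7 nuclear core subunits, which carry the flavin and the iron-sulphur clusters, were all above vehicle, by log2 ratios of 0.01 to 0.10, and none was beyond 1.1-fold. Their levels were close to one another, from 78.5 FPKM for Ndufs1 to 203 FPKM for Ndufv2, a spread of 2.59-fold.

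Ndufv1, which binds NADH and the flavin, was listed at 120 FPKM in vehicle rats and 128 FPKM after CORT. Ndufs7, whose iron-sulphur cluster is the last before ubiquinone, was listed at 91.5 FPKM and 98.0 FPKM. Ndufs1, the largest of the core subunits, was listed at 76.7 FPKM and 80.2 FPKM. These 3 had the highest ratios of the core, at 0.10, 0.10 and 0.06.
Other core genes were nearer to equality. Ndufs3 was listed at 112 FPKM and 115 FPKM and Ndufs8 at 102 FPKM and 105 FPKM. Ndufv2, the iron-sulphur partner of Ndufv1, was listed at 203 FPKM and 204 FPKM, a log2 ratio of 0.01.

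The accessory subunits surround the core and are needed for its assembly and stability. Of 11 Ndufa members 8 were above vehicle, with a median log2 ratio of 0.03, and of 9 Ndufb members 4 were above and 5 below, with a median of -0.01. Ndufb7 and Ndufb8, both of the membrane arm, were the subunits of complex I with the highest ratios. Ndufb7 was listed at 196 FPKM in vehicle rats and 223 FPKM after CORT, a log2 ratio of 0.19, and Ndufb8 at 318 FPKM and 350 FPKM, a log2 ratio of 0.14. Ndufb9, which was as abundant as Ndufb8, was listed at 346 FPKM and 338 FPKM. Both Ndufc members were above vehicle, at 0.02 and 0.07. Ndufv3, an accessory subunit next to the NADH site, was listed at 24.6 FPKM and 23.1 FPKM, a log2 ratio of -0.10. Ndufv3-ps1, which RefSeq lists as a pseudogene, was listed at 176 FPKM and 174 FPKM, above its parent gene. Whether reads were shared between these loci was not checked, so the level of each is uncertain. Ndufv3-ps1 is counted in the sum and median of complex I.

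Ndufa4, the highest of the Nduf symbols, was first described in complex I and later assigned to cytochrome c oxidase. It was listed at 500.3 FPKM in vehicle rats and 493 FPKM after CORT. Its paralogue Ndufa4l2, known as a gene induced by hypoxia, was listed at 3.22 FPKM and 2.56 FPKM, a log2 ratio of -0.33. Ndufa4 was thus 172-fold more abundant than Ndufa4l2 by mean FPKM, and the low member of the pair was the one farther from equality.

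The 7 Ndufaf genes, whose products build complex I and do not stay in it, were expressed at a median of 12.2 FPKM in vehicle rats and 11.8 FPKM after CORT, an order of magnitude under the subunits. Ndufaf2, which helps attach the peripheral arm, was listed at 8.60 FPKM and 9.58 FPKM, a log2 ratio of 0.16. Ndufaf1, a factor of the membrane arm, was listed at 8.93 FPKM and 8.48 FPKM, a log2 ratio of -0.07. The other 5 lay between -0.06 and 0.05, and 4 of the 7 were above vehicle. Of 7 further assembly genes that the prefixes did not catch, 5 were above vehicle, from Foxred1 at -0.01 to Acad9 at 0.10.

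Complex II, succinate dehydrogenase, links the Krebs cycle to the respiratory chain, and its 4 subunits were close to one another in level. Sdha, the flavoprotein that oxidizes succinate, was listed at 132 FPKM in vehicle rats and 137 FPKM after CORT. Sdhb, the iron-sulphur subunit, was listed at 156 FPKM in both. The membrane anchors were listed at 170.1 FPKM and 167 FPKM for Sdhc and at 111 FPKM and 113 FPKM for Sdhd. From the lowest to the highest of these 4 genes the mean level differed by 1.51-fold, and their summed FPKM was 570 in vehicle rats and 572 after CORT.

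The Sdhaf genes, which insert cofactors into Sdha and Sdhb, were lower than the subunits. Sdhaf4, a chaperone of flavinylated Sdha, was listed at 84.2 FPKM in vehicle rats and 76.0 FPKM after CORT, and its log2 ratio of -0.15 was the lowest of complex II. Sdhaf2, which is needed for flavinylation of Sdha, was listed at 34.7 FPKM and 35.6 FPKM. Sdhaf3, a factor for the iron-sulphur subunit, was listed at 40.7 FPKM and 41.3 FPKM. With these genes the sum over complex II was 729 FPKM and 725 FPKM, a difference of -0.58% for CORT. Without them the difference was 0.45%. The change of side came from Sdhaf4, the only one of the 3 below vehicle.

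Complex III, cytochrome bc1, had a median log2 ratio of 0.00, and all 7 members lay within 1.1-fold. The core proteins Uqcrc1 and Uqcrc2 were listed at 136 FPKM and 141 FPKM and at 189 FPKM and 188 FPKM, with vehicle and CORT. Uqcrfs1, the Rieske iron-sulphur protein, was listed at 141 FPKM and 142 FPKM. The Rieske protein carries electrons, whereas the core proteins are structural parts of the matrix side.
The small subunits were more uneven. Uqcrh, the acidic hinge protein that contacts cytochrome c1, was the highest at 334 FPKM and 329 FPKM. Uqcr10 was listed at 267 FPKM and 291 FPKM, a log2 ratio of 0.13 and the highest of complex III. Uqcrq was listed at 50.6 FPKM and 49.0 FPKM, and Uqcrb, which binds ubiquinone, at 37.1 FPKM and 37.8 FPKM. The summed FPKM of complex III was 1154 and 1177. Cyc1, the cytochrome c1 gene that the prefixes did not catch, was listed at 182 FPKM and 193 FPKM, and Cycs, the mobile cytochrome c, at 301 FPKM and 299 FPKM. Of 6 assembly genes of complex III 3 were above vehicle, from Uqcc3 at -0.16 to Bcs1l, which inserts the Rieske protein, at 0.22.

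Complex IV, cytochrome c oxidase, is the complex in which several nuclear subunits exist as pairs, one used widely and the other confined to particular tissues. Over all 15 members the median log2 ratio was 0.03 and the summed FPKM was 7516 in vehicle rats and 7603 after CORT. The 11 members other than Cox4i2, Cox6a2, Cox6b2 and Cox8b had a median of 0.04, 8 of them were above vehicle, and all 11 lay within 1.1-fold. The remaining 4 summed to 31.7 FPKM in vehicle rats and 23.5 FPKM after CORT, a difference of -26.0%, and Cox8b carried most of that difference.

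Cox8b is the form of subunit VIII of heart, skeletal muscle and brown fat. It was listed at 20.9 FPKM in vehicle rats and 12.9 FPKM after CORT, a log2 ratio of -0.70 and the lowest of all members. Cox8a, the widely used form, was listed at 639 FPKM and 658 FPKM, a log2 ratio of 0.04. The 2 forms thus lay on opposite sides of vehicle, with differences of -38.2% for the muscle form and 3.02% for the common form. The Cox8b locus was chr1:213648787-213650247 and the Cox8a locus chr1:222466575-222468896 in the rn6 build. The 120 bases before the RefSeq start of each gene (GRCr8, strand of the gene, 5′ to 3′) are shown because this pair differed most, with the CRE and both ETS matches of Cox8a in capitals.
Cox8a: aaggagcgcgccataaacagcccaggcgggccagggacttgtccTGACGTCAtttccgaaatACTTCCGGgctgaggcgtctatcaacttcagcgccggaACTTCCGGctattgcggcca
Cox8b: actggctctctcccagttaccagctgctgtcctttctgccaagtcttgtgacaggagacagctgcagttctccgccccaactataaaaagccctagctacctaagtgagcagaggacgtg
The Cox8b stretch held none of the searched motifs. Several lists of markers of other tissue were lower with CORT, as Cox8b and Ndufa4l2 were, and the choroid plexus list was not, with a sum of 6698 FPKM in vehicle rats and 6693 FPKM after CORT. The 7 markers of thalamus or habenula had a median log2 ratio of -1.24, with a range of -2.61 to -0.09, and 6 of them were at least 1.2-fold lower. Of 5 listed markers of meningeal fibroblasts 4 were lower, their median was -0.48, and their sum was 103 FPKM in vehicle rats and 79.2 FPKM after CORT. Of 4 listed endothelial markers 3 were lower, with a median of -0.11. Their part in the values of Cox8b and Ndufa4l2 was not tested.

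The other tissue-restricted forms were low. Cox4i2, a form of lung and of cells that sense oxygen, was listed at 1.66 FPKM in vehicle rats and 1.52 FPKM after CORT, beside 804 FPKM and 834 FPKM for Cox4i1. Cox6a2, a muscle form, was listed at 1.91 FPKM and 2.28 FPKM, a log2 ratio of 0.25 and the highest of all members, beside 914 FPKM and 978 FPKM for Cox6a1. Cox6b2, a testis form, was listed at 7.27 FPKM and 6.78 FPKM. The widely used form was the more abundant in each of these pairs, and the largest ratios of the complex, in both directions, belonged to the rarer forms. Cox7a1 and Cox8c were not among the symbols that the prefixes matched, so these forms have no value here.

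Among the abundant members of complex IV, Cox6b1 was listed at 1261 FPKM in vehicle rats and 1293 FPKM after CORT. Cox7a2 was listed at 1244 FPKM and 1169 FPKM, a log2 ratio of -0.09, and Cox7a2l, whose product takes part in joining complexes III and IV, at 154 FPKM and 153 FPKM. Cox5a was listed at 115 FPKM and 124 FPKM, a log2 ratio of 0.11. Of 13 listed genes for copper delivery, haem synthesis and oxidase assembly, 7 were above vehicle. They ran from Coa7 at 4.12 FPKM and 3.43 FPKM, a log2 ratio of -0.26, to Cox14 at 1052 FPKM and 1221 FPKM, a log2 ratio of 0.21.

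Complex V, the ATP synthase, had the largest summed difference of the 5 complexes. Its sum was 6309 FPKM for vehicle and 6531 FPKM for CORT, 3.52% higher, beside 6.57% for the sum over all symbols. The limit given for that sum under complex I holds here too. Its median log2 ratio was 0.03 and 10 of 16 members were above vehicle. The F1 head makes ATP, and 4 of its 5 genes were above vehicle. The catalytic subunits Atp5b and Atp5a1 were listed at 887 FPKM and 897 FPKM and at 400.4 FPKM and 413 FPKM. The central stalk genes Atp5c1 and Atp5d were listed at 246 FPKM and 245 FPKM and at 245 FPKM and 251 FPKM, and Atp5e, the smallest stalk subunit, at 544 FPKM and 576 FPKM. The head holds alpha and beta in equal number, whereas the Atp5b transcript stood above that of Atp5a1.

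The c ring that turns with the proton flow is encoded by 3 genes that give the same mature protein from different import signals. Atp5g3 was the highest at 412 FPKM in vehicle rats and 425 FPKM after CORT. Atp5g2 was listed at 287 FPKM and 286 FPKM and Atp5g1 at 188 FPKM and 192 FPKM. Together they summed to 887 FPKM and 904 FPKM, and the order of the 3 genes was the same in both groups.
The stator that holds the head still was near equality as well. Atp5o, which joins the stalk to the head, was listed at 297 FPKM and 304 FPKM, Atp5h at 242 FPKM and 240.4 FPKM, and Atp5j at 155 FPKM and 148 FPKM. The last, with a log2 ratio of -0.06, was the lowest of complex V.

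The small membrane subunits of complex V were among the most abundant transcripts of the table. Atp5i, which takes part in pairing synthase units, was listed at 1215 FPKM in vehicle rats and 1340.2 FPKM after CORT, a log2 ratio of 0.14. By the mean of both groups it ranked 28 in the table, next to Cox6b1 at 29, and of the 16 members it added the most to the difference in the sum over complex V. Atp5l was listed at 634 FPKM and 662 FPKM and Atp5j2 at 524 FPKM and 514 FPKM. Atp5s and Atp5sl, which RefSeq calls Dmac2l and Dmac2, were counted in complex V by the start of their symbol and are not among these membrane subunits. They were listed at 8.87 FPKM and 8.64 FPKM and at 25.3 FPKM and 27.4 FPKM. All 4 listed genes for assembly and inhibition of the synthase were above vehicle, from Atpaf1 at 0.01 to the inhibitor Atpif1 at 0.11.

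A few members were represented by more than 1 row, and the row used decides what their values mean. The used rows of Cox6b1, Cox7a2 and Ndufa13 lie at short loci of 261, 252 and 429 bp on chromosomes 2, 14 and 7, whereas RefSeq places these genes on chromosomes 1, 8 and 16. Reads from near-identical copies may have been shared between the loci, so the level of each of these 3 genes at its own locus is uncertain. The second row of Cox6b1, on chromosome 1, was listed at 10.6 FPKM and 10.7 FPKM. That of Cox7a2, on chromosome 8, was listed at 65.2 FPKM and 67.1 FPKM, a log2 ratio of 0.04 and so on the other side of vehicle from the used row. That of Ndufa13, on chromosome 16, was listed at 136 FPKM and 134 FPKM, close to the 142 FPKM and 139 FPKM of the used row. Outside the members, the rows of Cycs (chr18:62476383-62476700) and Cox14 (chr7:141380322-141380495) also lie at short loci. Whether their reads were shared with other loci was not checked, so their levels carry the same caution.

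The other 4 symbols had 2 transcripts of 1 locus. The second transcripts of Atp5c1, Atp5d and Atp5g2 were at most 11.2 FPKM, and each was a little higher with CORT. For Ndufv3, the used transcript was listed at 24.6 FPKM and 23.1 FPKM, whereas the second was listed at 1.51 FPKM in vehicle rats and 5.70 FPKM after CORT, a 3.78-fold difference. This was the largest ratio among the 92 rows, and the sum of both transcripts was higher with CORT. How the fragments of this locus were divided between its transcripts was set by the authors' estimate and could not be checked without reads.

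**Figure D4:**
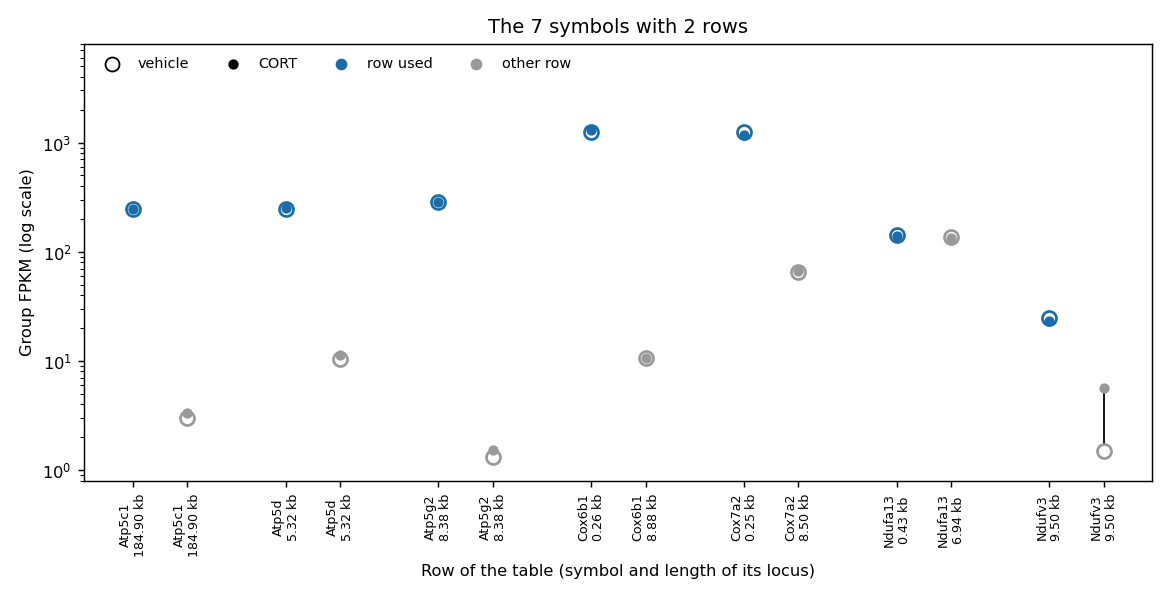
FPKM on a log axis of both rows of the 7 symbols that have 2, with open circles for vehicle, filled circles for CORT, blue for the row used and grey for the other, and the length of each locus under its symbol. The rows used for Cox6b1, Cox7a2 and Ndufa13 have loci under 1 kb, and the lower Ndufv3 row is the one whose circles stand apart, at 1.51 FPKM and 5.70 FPKM.

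Transcripts of the mitochondrial genome, which supply the remaining subunits of complexes I, III, IV and V, lay on the other side of vehicle from most nuclear members. All 8 listed of 13 were lower with CORT, by log2 ratios of -0.06 for Mt-nd5 to -0.20 for Mt-nd3, with a median of -0.14. Mt-co2, a catalytic subunit of complex IV and the highest symbol of the table, was listed at 17927 FPKM in vehicle rats and 15919 FPKM after CORT. Their sum was 54426 FPKM and 49262 FPKM, a difference of -9.49%, whereas the sum over the 85 nuclear members was 21100 FPKM and 21554 FPKM, 2.15% higher. Over all symbols the sum was 541355 FPKM and 576928 FPKM, 6.57% higher, a larger difference than that of the nuclear members. The median log2 ratio over all symbols was 0.02, so that sum does not describe a typical symbol. It includes the 2 rows named next. Another 2 rows of the mitochondrial chromosome, AY172581.9 and AY172581.24, stood at 4465 FPKM and 7113 FPKM and at 3300 FPKM and 5427 FPKM, vehicle first, log2 ratios of 0.67 and 0.72. These rows carry no gene name in the table. They span bases 68 to 1025 and 1094 to 2664 of that chromosome, before Mt-nd1, which begins at 2740. They are not among the 8 mRNAs above.

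Lists of other mitochondrial and housekeeping genes are given beside the members. Over all symbols 54.2% were above vehicle, and 60.7% of those at or above 10 FPKM were. The Krebs cycle genes had a median log2 ratio of 0.05 and 11 of 13 were above vehicle, from Suclg2 at -0.23 to Ogdh, a subunit of the oxoglutarate dehydrogenase complex, at 0.21. The 69 mitochondrial ribosomal protein genes had a median of 0.00, and 35 were above vehicle, from Mrpl33 at -0.30 to Mrpl41 at 0.68. The 57 cytosolic ribosomal protein genes, whose median level in vehicle rats was 139 FPKM, had a median of -0.12 and 12 were above vehicle, from Rps24 at -1.14 to Rps7 at 0.63. Of the 57, 8 were at least 1.2-fold lower and 2, Rpl34 and Rps7, at least 1.2-fold higher. Many ribosomal genes have processed copies in the genome, and the caution on shared reads holds for them as well.

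**Figure D5:**
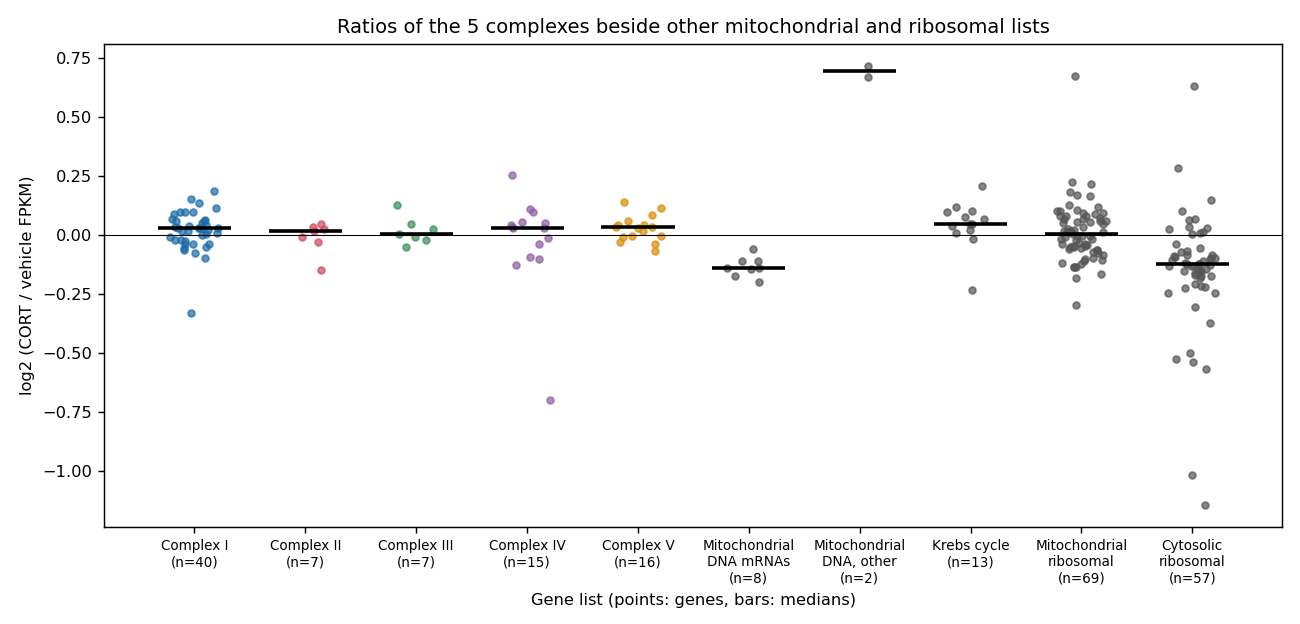
Log2 ratio of CORT over vehicle FPKM (vertical axis) of each gene (points) and the median (bars) for complexes I to V and for 5 other sets, with the number of genes under each name. The medians of the 5 complexes lie between 0.00 and 0.03, those of mitochondrial mRNAs and cytosolic ribosomal protein genes at -0.14 and -0.12, and that of the other 2 rows of the mitochondrial chromosome at 0.69.

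Regulators and carriers of the pathway were described last, again beside 54.2% of all symbols above vehicle. Of 13 listed genes of mitochondrial biogenesis 8 were above vehicle, with a median log2 ratio of 0.02. Among those of at least 1 mean FPKM, the ratios ran from Gabpa, an ETS factor of nuclear genes for mitochondrial proteins, at 6.82 FPKM and 5.81 FPKM, a log2 ratio of -0.23, to Polg, the mitochondrial DNA polymerase, at 8.39 FPKM and 9.47 FPKM, a log2 ratio of 0.17. Below 1 mean FPKM, the coactivator gene Ppargc1b was listed at 0.68 FPKM and 0.97 FPKM, and it was the single gene of the list beyond 1.2-fold. All 6 listed carriers of phosphate, adenine nucleotides and protons were above vehicle, from Slc25a3 at 0.02 to Slc25a14 at 0.12. Of 9 listed genes of lactate and pyruvate use 6 were above vehicle, and Pdk4 at 2.54 and Pdk3 at -0.29 were the only ones beyond 1.2-fold. Of the 85 members, Cox8b at -0.70 was the farthest from 0, nearer to it than Pdk4.

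Members lay on most chromosomes, with 12 on chromosome 1 and 11 on chromosome 7. Close pairs were found in rn6. Ndufs8 and Ndufv1, both core subunits of complex I, lay 67.4 kb apart on chromosome 1, with log2 ratios of 0.03 and 0.10. Ndufs7 and Atp5d lay 100.4 kb apart on chromosome 7, with log2 ratios of 0.10 and 0.03.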

How the data were processed

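The submitters' notes name CASAVA 1.8.2, TopHat2 2.0.10, Cuffdiff 2.2.0 and the rn6 genome for stranded total RNA libraries. The deposited FPKM values were made by the authors with geometric normalization, a pooled dispersion, at least 10 alignments per tested transcript, and corrections for multiply mapped reads, sequence bias and effective length. Each group has 1 FPKM value. The deposited table also holds the authors' fold change, statistic, p and q columns, which were not used. From the 2 FPKM values, log2 ratios, sums and medians were computed with pandas 2.3.3 and numpy 2.4.6 under Python 3.11.15, after tests on simulated data, and plots were drawn with matplotlib 3.10.9. Locus starts, counted from 0 in the table, were shifted to count from 1, and a locus may span neighbouring genes. All 85 symbols matched RefSeq (GRCr8), 16 of them by synonym. A fold of 1.2 describes size only. Members, lists and the rule for named genes (all of complexes II and III, core, F1, ring, stator and paralogous subunits, assembly factors, symbols with 2 rows, and the highest level and extreme ratios of each complex and list) were chosen with earlier results of these data known. Ndufv3-ps1, Ppargc1b, Rpl34, Mt-co2, the unnamed mitochondrial rows and the genes shown for a motif were named after their values were seen. Alternatives were pseudocounts, level floors, other rows, centring, other folds and other memberships. Values of 1 member, counted in the totals, are not reported here.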

Additional observations from a re-analysis of the deposited data

How the results depend on the processing

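Of the alternative values computed, 241 stayed within the yardsticks, 9 moved and 2 changed side of vehicle. The yardsticks were the same side of vehicle and under 0.1 on the log2 scale for ratios, and at most 1.5 times for counts and levels. The 241 are no measure of robustness, because part of them could not change. A floor of 1 FPKM removed no member, the lowest being Cox4i2 at 1.59 FPKM. Counting Ndufa4 in complex IV cannot alter complexes II, III and V. The count of members at least 1.2-fold lower was 2, and it was 1 with 1 FPKM added to both values, 1 among symbols of at least 10 FPKM and 1 at 1.5-fold, in each case without Ndufa4l2. At 1.1-fold it was 3. The count of members higher was 0, and it was 5 at 1.1-fold. The summed vehicle FPKM of complex IV was 7516, and it was 5010.1 over symbols with 1 row, which leaves out Cox6b1 and Cox7a2. Its median of 428 FPKM for vehicle and 437 FPKM for CORT became 706 and 724 among symbols of at least 10 FPKM, and 154 and 153 with the row of the longest locus. The median log2 ratio of complex III was 0.0045, and it was -0.013 after centring on the median of all symbols. The summed ratio of complex II was 0.994, and it was 1.004 without its assembly factors. Medians of the other complexes stayed above 0, and that of all members ran from 0.01 to 0.03. Using the longest locus, or leaving out Ndufv3-ps1, Atp5s and Atp5sl, was chosen after the data were seen. No paired analysis was possible because each group has a single FPKM column and no values per rat, and leaving out single rats was not run for the same reason. FPKM from 1 value a group cannot separate a difference of this size from the spread between rats, and the depth is unknown.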
